A study of Mus musculus with 50 samples.

Results

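Glycolysis is the chain of reactions that turns glucose into pyruvate, and several of its steps can be carried out by alternative enzymes, called isoforms, that separate genes encode. Described here are 10 such genes in mouse frontal cortex: the hexokinases Hk1 and Hk2, the glucose phosphate isomerase Gpi1, the phosphofructokinases Pfkl, Pfkm and Pfkp, the aldolase Aldoa, and the enolases Eno1, Eno2 and Eno3. They are 10 of the 55487 genes in the count files and 10 of the 16330 protein-coding genes that passed a filter on low counts, so that filter removed no member. The list was drawn up by gene symbol after differences between genotypes had been seen in these same libraries, in Gpi1 at E18 and in Eno3 at each age. Since the members were chosen on these differences, values by genotype are a description of the 10 genes and carry no test. The change of a gene from one age to another was not used to choose it, and changes with age are tested. However, the WT libraries of E18 that helped to choose Gpi1 also enter its steps to and from E18. Eno3 was chosen on libraries of each age, and its age tests use them again. Those tests of Gpi1 and Eno3 are therefore not fully independent of the choice. The symbol Aldoa belongs to 2 gene identifiers, which makes 11 identifiers in all, and Aldoa below is the longer entry.

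The study sequenced polyadenylated RNA from frontal cortex to ask how loss of 1 copy of Setd1a, which encodes a histone methyltransferase, alters gene expression during development. The 50 libraries came from 10 groups of 5 mice. Wild-type (WT) mice and mice labelled Setd1a+/-, called Het, were taken at embryonic days 14 and 18 (E14, E18) and at postnatal days 7, 35 and 70 (P7, P35, P70). The Het mice carried 1 loss-of-function allele (tm1d, from a knockout-first design) in all cells, and the strain was labelled C57BL/6NTac for every library, whereas the methods give a mixed C57BL/6NTac and C57BL/6J background. No group was treated. The methods describe male mice, embryonic ages a fraction of a day later than the labels, RNA from part of a homogenate of both frontal cortices, and a single sequencing batch. At the embryonic ages frontal brain regions were dissected, and after birth frontal cortex, so age and dissection cannot be told apart between E18 and P7. Each library held 35507165 to 43907318 counted fragments (median 38621490 in WT and 38680536 in Het), and each of the 10 genes had at least 108 counts in every library. Levels are given as CPM, counts scaled to a common library size by the trimmed mean of M values (TMM). Levels of the 10 genes are compared with each other as RPKM, CPM per kilobase of all annotated exons of the gene, or where stated per kilobase of the longest transcript. Hkdc1 is set beside Hk2 in CPM, and marker lists are summed in CPM.

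In the pathway, hexokinase traps glucose in the cell as glucose phosphate, the isomerase converts this to fructose phosphate, and phosphofructokinase adds a further phosphate in the main regulated step. Aldolase then splits the sugar, and enolase makes the last intermediate before pyruvate. Isoforms differ by tissue: Hk1, Eno2 and Pfkp are known as brain or neuronal forms, Eno1 as the form of most tissues and of glia, Eno3 and Pfkm as muscle forms, Pfkl as the liver form, and Aldoc as the aldolase of astrocytes and Purkinje cells beside the widespread Aldoa.

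The targeted gene, Setd1a (ENSMUSG00000042308, chr7:127776670-127800122 of GRCm38, forward strand), was examined first. At E14 the WT libraries held 123, 124, 130.0, 114 and 113 CPM and the Het libraries 143, 129.9, 122, 133.03 and 124 CPM. At E18 they held 89.0, 91.1, 90.1, 81.3 and 95.3 against 99.0, 112, 92.3, 99.0 and 108 CPM. Het values lay mostly above the WT values at both embryonic ages, and the groups overlapped. At P7 the WT libraries held 69.1, 72.6, 66.8, 67.3 and 67.9 CPM and the Het libraries 78.1, 74.6, 72.8, 79.5 and 79.8 CPM, and here every Het library lay above every WT library. At P35 the values were 87.3, 78.5, 77.8, 80.6 and 81.2 against 87.5, 84.0, 84.1, 85.2 and 87.2 CPM, and at P70 80.4, 84.5, 80.8, 77.7 and 87.7 against 78.1, 81.9, 77.6, 73.0 and 93.2 CPM, both with overlap. The total for the gene was thus lower in Het at no age but P70, where the means were 82.2 and 80.8 CPM. These totals pool all exons, the part removed from the allele was not separated, and reads in exons shared with Gm49388 on the same strand were counted for both genes. They therefore do not check the genotype labels. The methods say that the mice were genotyped, the files hold no protein values, and groups are named as labelled.

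A few libraries stood apart. Xist, the RNA of the inactive X chromosome, had 60159 counts in WT library 5 of E14 and 55644 in WT library 2 of E18, against at most 27 in each of the other 48, although male mice are described. WT library 2 of P7 differed from its group across genes. Its log2 values deviated from the mean of its group with an SD of 0.550 over genes, and those of the 4 other libraries with an SD of 0.240 to 0.272. Its summed choroid plexus markers (Ttr, Folr1, Kl, Clic6) were 588 against 2.19 to 2.81 CPM. Its summed progenitor markers were 409.5 against 161 to 225 CPM, and its neuron markers 3029 against 4213 to 4441 CPM. Further marker lists, not given here, also differed in that library. Many results that rest on these libraries are given with and without them, though not all.

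Between E14 and P70 in WT cortex, 8 of the 10 genes rose and 2, Hk2 and Eno3, fell. The largest rise was in Eno2, the neuronal enolase, at 25.9-fold, followed by Aldoa at 10.3-fold, while Hk2 was 5.07-fold lower at P70. Each gene was tested with the quasi-likelihood test of edgeR over all 16330 genes, with Benjamini-Hochberg adjustment, and called at an adjusted p under 0.05. Most genes change over this span: 42.8% of all tested genes were called higher and 42.9% lower, so the number of members that moved is near the background, and their direction and size carry the description. The median log2 change was 1.41 over the 10 genes and -0.00192 over all tested genes. In Het cortex, again 8 rose and 2 fell, beside 42.3% of all genes called higher and 43% lower, with a median of 1.502. Without TMM scaling, by library size alone, the median of all genes shifted to -0.12 in WT, and the 8 and 2 calls did not change. Without the Xist libraries 8 again rose and 2 fell. In every one of the 10 genes, the 5 libraries of E14 and the 5 of P70 did not overlap in either genotype. The share of all tested genes with no overlap at this span is not given, so nothing is read from that count.

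**Figure D1:**
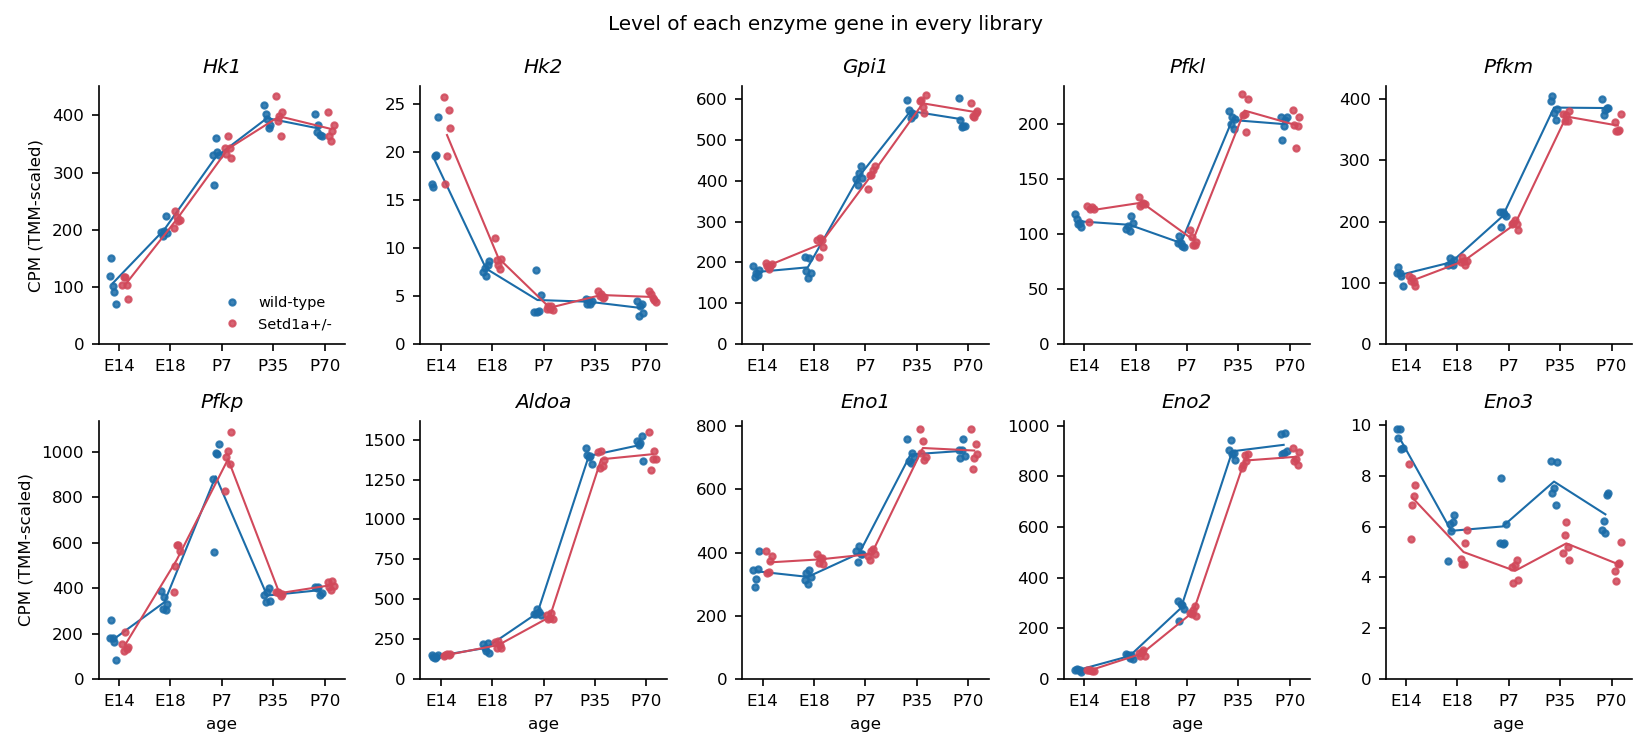
Level of each of the 10 genes in every library, in CPM after TMM scaling (vertical axis, from 0) against age (horizontal axis). Each point is 1 library, blue for WT and red for Het, and lines join the group means. Hk2 and Eno3 are highest at E14, Pfkp is highest at P7, and the other 7 genes are highest at P35 or P70.

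Step by step in WT, 5 genes rose and 2 fell from E14 to E18, where 31.8% of all tested genes were called higher and 34.1% lower. From E18 to P7, 7 rose and 2 fell, beside 33.9% and 33.4% of all genes. From P7 to P35, 8 rose and 1 (Pfkp) fell, beside 32.6% and 34.3%. From P35 to P70 edgeR called 0 of the 10 genes, with 1 (Eno3) at an unadjusted p under 0.05, beside 1849 of all 16330 tested genes. DESeq2 and limma-voom likewise called 0, and of all tested genes 0.533% were called higher and 0.527% lower at this step. The called steps of these genes in WT thus lay between E14 and P35. Eno3 still differed by -0.26 (SE 0.112) at the last step, which did not pass. Single steps were not tested in Het.

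The 250 bases before the start of 5 of the genes are shown because these genes carry the opposite age patterns (Hk2 and Eno2), the pattern by genotype (Gpi1 and Eno3) and the widespread enolase for comparison (Eno1). They come from RefSeq on GRCm38.p6, and all 10 members matched there, with 18 windows because some genes have several starts. The windows lie at chr6:82774455-82774704, reverse strand for Hk2, chr7:34230337-34230586, reverse strand for Gpi1, chr4:150236458-150236707, forward strand for Eno1 (the most upstream of its 3 starts), chr6:124769674-124769923, reverse strand for Eno2 and chr11:70656926-70657175, forward strand for Eno3. Capitals mark each match to ACGTG, the core of the element that hypoxia-inducible factors bind, and to GGGCGG, the GC box, on either strand (read as CACGT and CCGCCC on the other strand).
Hk2: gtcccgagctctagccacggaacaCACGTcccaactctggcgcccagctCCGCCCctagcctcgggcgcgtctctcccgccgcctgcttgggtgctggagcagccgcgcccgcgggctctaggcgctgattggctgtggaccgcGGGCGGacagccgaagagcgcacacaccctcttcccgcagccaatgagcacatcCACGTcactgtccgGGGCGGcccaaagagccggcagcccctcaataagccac
Gpi1: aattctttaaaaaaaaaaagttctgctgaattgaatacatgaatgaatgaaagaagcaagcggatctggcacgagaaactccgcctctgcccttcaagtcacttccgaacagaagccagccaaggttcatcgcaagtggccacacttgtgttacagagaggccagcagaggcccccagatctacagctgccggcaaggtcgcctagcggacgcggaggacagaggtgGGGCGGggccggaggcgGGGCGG
Eno1: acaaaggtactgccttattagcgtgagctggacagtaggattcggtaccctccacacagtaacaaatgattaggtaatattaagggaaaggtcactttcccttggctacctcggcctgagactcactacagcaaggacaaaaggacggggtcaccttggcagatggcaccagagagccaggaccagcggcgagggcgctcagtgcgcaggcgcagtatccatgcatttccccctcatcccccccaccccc
Eno2: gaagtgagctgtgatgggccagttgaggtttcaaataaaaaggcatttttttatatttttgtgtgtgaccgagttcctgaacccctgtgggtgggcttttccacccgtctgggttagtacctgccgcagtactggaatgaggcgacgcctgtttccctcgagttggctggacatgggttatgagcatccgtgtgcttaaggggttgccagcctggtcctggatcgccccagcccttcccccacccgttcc
Eno3: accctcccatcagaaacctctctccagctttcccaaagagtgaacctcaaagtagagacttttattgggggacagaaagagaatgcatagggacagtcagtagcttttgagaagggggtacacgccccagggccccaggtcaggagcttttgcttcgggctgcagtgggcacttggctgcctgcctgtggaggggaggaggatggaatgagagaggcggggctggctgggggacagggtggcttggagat
The Hk2 window held 2 matches to ACGTG and 3 to GGGCGG, the Gpi1 window 2 to GGGCGG, and the windows shown for Eno1, Eno2 and Eno3 none of either. Of all 32851 windows in the table, 16.6% held ACGTG and 32.7% GGGCGG. Of the 18 windows of the members, some of which overlap, 5 held ACGTG (in Hk2, Pfkm and Aldoa) and 7 GGGCGG (in Hk2, Gpi1, Pfkp, Aldoa and windows of Eno1 not shown). A match describes letters only, and nothing about binding was measured.

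Hexokinase opens the pathway. Hk2 fell between E14 and P7, and Hk1 rose. Hk2 (ENSMUSG00000000628, chr6:82725025-82774454, reverse strand), the isoform known from muscle and dividing cells, stood in WT at 16.6, 16.3, 19.6, 19.7 and 23.6 CPM at E14 and at 7.47, 7.91, 7.07, 8.21 and 8.704 CPM at E18. At P7 the WT libraries held 3.36, 7.76, 3.40, 3.42 and 5.08 CPM, at P35 4.72, 4.16, 4.56, 4.17 and 4.51 CPM and at P70 4.46, 2.91, 4.02, 4.22 and 3.30 CPM. All E14 libraries lay above all others, and P7 overlapped E18 only by the value of 7.76 CPM, which belongs to the library that stood apart. The other 4 libraries of P7 overlapped those of P35. Hk2 fell by 2.34 on the log2 scale from E14 to P70 (SE 0.154, edgeR adjusted p = 1.61e-18), lower in 5 of 5 P70 libraries than in any E14 library. In Het it fell by 2.14 (SE 0.152, edgeR adjusted p = 2.12e-17, again 5 of 5), from 25.7, 16.6, 19.5, 24.4 and 22.5 CPM at E14 to 5.59, 5.24, 4.76, 4.60 and 4.39 CPM at P70. The fall had ended by P7: the step from E14 to E18 was -1.28 (SE 0.146) and that from E18 to P7 -0.77 (SE 0.149), or -1.05 without WT library 2 of P7.

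Hk1 (ENSMUSG00000037012, chr10:62268855-62379908, reverse strand), the hexokinase that most adult brain cells use, went the other way. Its WT libraries ranged from 70.6 to 151 CPM at E14 through 189.8 to 224 at E18 and 278 to 359.7 at P7 to 377 to 418 at P35 and 365 to 402 at P70. The order of the WT means was E14, E18, P7, P70, P35 from low to high, and of neighbours only P70 and P35 overlapped. Hk1 rose 3.53-fold over the whole span, by 1.82 on the log2 scale (SE 0.105, edgeR adjusted p = 1.63e-20, higher in 5 of 5 P70 libraries), and in Het by 1.85 (SE 0.105). The rise between P7 and P35, 0.27 (SE 0.102) with edgeR adjusted p = 0.0166, had all 5 P35 libraries above all 5 P7 libraries. Without WT library 2 of P7 this step was 0.22 and did not pass (edgeR adjusted p = 0.0631), nor did it with scaling by library size alone (0.18, edgeR adjusted p = 0.0750). The gene shares 1.84% of its exonic bases with the antisense gene Hk1os, and the counting did not use strand.

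Of Hk1 and Hk2, counted per kilobase, Hk1 was the larger part in WT cortex at each age. Its share of Hk1 and Hk2 together was 83.4, 86.6, 78.5, 76.4 and 67.7% in the E14 libraries and 98.4, 98.9, 98.5, 98.4 and 98.7% in the P70 libraries. The P70 libraries lay within a narrow band above all E14 libraries, which were spread widely. The mean share rose from 78.5% ± 7.27 to 98.6% ± 0.212 (SD, n = 5 per age; two-sided exact permutation test p = 0.00794, the smallest that 5 against 5 libraries can give and unadjusted, as are those of all 8 shares tested). In Het it rose from 76.7% ± 5.05 to 98.2% ± 0.161. The share leaves out Hkdc1, another gene of the family, whose WT mean went from 0.348 CPM at E14 to 18.7 CPM at P70, where the mean of Hk2 was 3.78 CPM.

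Glucose phosphate isomerase has a single gene. Gpi1 (ENSMUSG00000036427, chr7:34201330-34230336, reverse strand) rose to P35, with called steps from E18 to P7 and from P7 to P35. The WT libraries held 192.6, 164.2, 174, 170.4 and 182 CPM at E14 and 213.1, 179, 163.2, 210.4 and 175 CPM at E18. At P7 they held 403, 389, 418, 436 and 407 CPM, at P35 598, 574, 554, 565 and 560.5 CPM and at P70 603, 549, 531, 534 and 533 CPM. The embryonic WT groups overlapped, as did P35 and P70, and P7 lay between with no overlap on either side. Gpi1 rose 3.12-fold from E14 to P70, by 1.64 on the log2 scale (SE 0.0559, edgeR adjusted p = 4.78e-29, higher in 5 of 5 libraries), and by 1.56 in Het (SE 0.0557). The step from E18 to P7 was 1.13 (SE 0.0552) and that from P7 to P35 0.47 (SE 0.0545). The step from E14 to E18 was 0.09 (SE 0.0546) and did not pass (edgeR adjusted p = 0.136). It passed with scaling by library size alone (0.15, edgeR adjusted p = 0.0284) and with a filter of at least 10 CPM in at least 5 libraries (0.14, edgeR adjusted p = 0.0298). It also passed without WT library 3 of E18, the lowest of its group (0.14, edgeR adjusted p = 0.0235). In Het the libraries held 185 to 199 CPM at E14 and 214 to 259 CPM at E18, with no overlap, and that step was not tested.

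The phosphofructokinase isoforms each followed a course of their own. Pfkp (ENSMUSG00000021196, chr13:6579768-6648777, reverse strand), the platelet form that is abundant in brain, was highest at P7. The WT libraries held 181, 260.1, 180.0, 163.1 and 82.9 CPM at E14, 387, 307, 363, 302 and 331 CPM at E18 and 879, 560.3, 994, 991 and 1036 CPM at P7. They held 371, 339, 384, 400.3 and 343 CPM at P35 and 403, 399, 406, 368 and 378 CPM at P70. Every P7 library lay above every library of the other ages, and the lowest of them, 560 CPM, was the library that stood apart. The adult libraries overlapped each other, and those of E18 overlapped those of P35. Pfkp rose 2.64-fold from E18 to P7 (SE 0.160 on the log2 scale, edgeR adjusted p = 2.33e-10) and fell 2.43-fold from P7 to P35 (log2 change -1.28, SE 0.159, edgeR adjusted p = 1.85e-09), each in 5 of 5 libraries. Without WT library 2 of P7 these steps on the log2 scale were 1.52 and -1.41.

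In the Het libraries Pfkp was also highest at P7, with 153, 123, 209, 134 and 140.1 CPM at E14, 828, 976, 1002, 946 and 1086 CPM at P7 and 426, 407, 393, 431 and 409 CPM at P70, and no overlap between P7 and any other age. The order of the other ages differed. Het means were 524 CPM at E18, 378 at P35 and 413 at P70, against 338, 368 and 391 CPM in WT. Whether the courses differ by genotype was not tested. From E14 to P70 Pfkp rose 2.25-fold in WT, by 1.17 (SE 0.159, edgeR adjusted p = 6.5e-09, higher in 5 of 5 libraries), and by 0.99 without the Xist libraries. WT library 5 of E14, which carried Xist, had the least Pfkp of its group. In Het the rise was 1.44 (SE 0.161). Pfkp shares 5.58% of its exonic bases with Pitrm1.

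Pfkm (ENSMUSG00000033065, chr15:98092589-98132451, forward strand), the muscle form, climbed at each step up to P35, while Pfkl (ENSMUSG00000020277, chr10:77986947-78010083, reverse strand), the liver form, dipped at P7. WT libraries of Pfkm ranged from 95.2 to 127 CPM at E14, 129 to 141 at E18 and 191 to 216 at P7 to 366 to 406 at P35 and 375 to 399.8 at P70, with overlap of the last pair alone. WT libraries of Pfkl ranged from 106 to 118 CPM at E14 and 103 to 116 at E18 through 87.7 to 98.4 at P7 to 195.1 to 211 at P35 and 185 to 206.03 at P70. Here the embryonic groups overlapped, P7 lay below every other age, and the adult groups lay above. Pfkm rose 3.41-fold from E14 to P70 (1.77 on the log2 scale, SE 0.0478, edgeR adjusted p = 9.36e-33, 5 of 5 libraries) and Pfkl 1.79-fold (0.84, SE 0.0462, edgeR adjusted p = 2.84e-21, 5 of 5 libraries). In Het the changes were 1.78 (SE 0.0479) and 0.71 (SE 0.0461). Pfkl fell by 0.24 from E18 to P7 (SE 0.0461) and rose by 1.15 from P7 to P35 (SE 0.0466). Pfkm shares 10.2% of its exonic bases with Gm26513 and 0.539% with Senp1, and such reads were counted for both genes.

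Set side by side per kilobase, the makeup of phosphofructokinase RNA shifted back and forth. Pfkm held 53.5% ± 1.92 of the family at E14, 44.1% ± 3.75 at P7 and 66.1% ± 0.378 at P70 in WT (mean ± SD, n = 5). Pfkp held 19.8% ± 4.96, 46.1% ± 5.53 and 16.7% ± 0.751 at those ages, and Pfkl 26.6% ± 3.11, 9.79% ± 1.80 and 17.1% ± 0.522. Between E14 and P70 the shares of Pfkm and Pfkl changed in opposite directions in both genotypes (two-sided exact permutation p = 0.00794 each). The share of Pfkp did not pass, at 20.3, 26.1, 20.9, 19.7 and 12.2% in the E14 libraries and 16.7, 17.5, 17.4, 15.8 and 16.2% in the P70 libraries (difference -3.13 points, two-sided exact permutation p = 0.246). WT library 5 of E14, a Xist library, had the lowest share, and without it the difference was -5.03 points with exact permutation p = 0.00794. In Het the Pfkp share was 18.6% ± 2.88 at E14 and 18.4% ± 0.638 at P70 (exact permutation p = 0.960). The summed level of the 3 genes rose from 63.5 ± 8.58 RPKM at E14 to 174 ± 3.91 RPKM at P70 in WT (SD, n = 5).

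**Figure D2:**
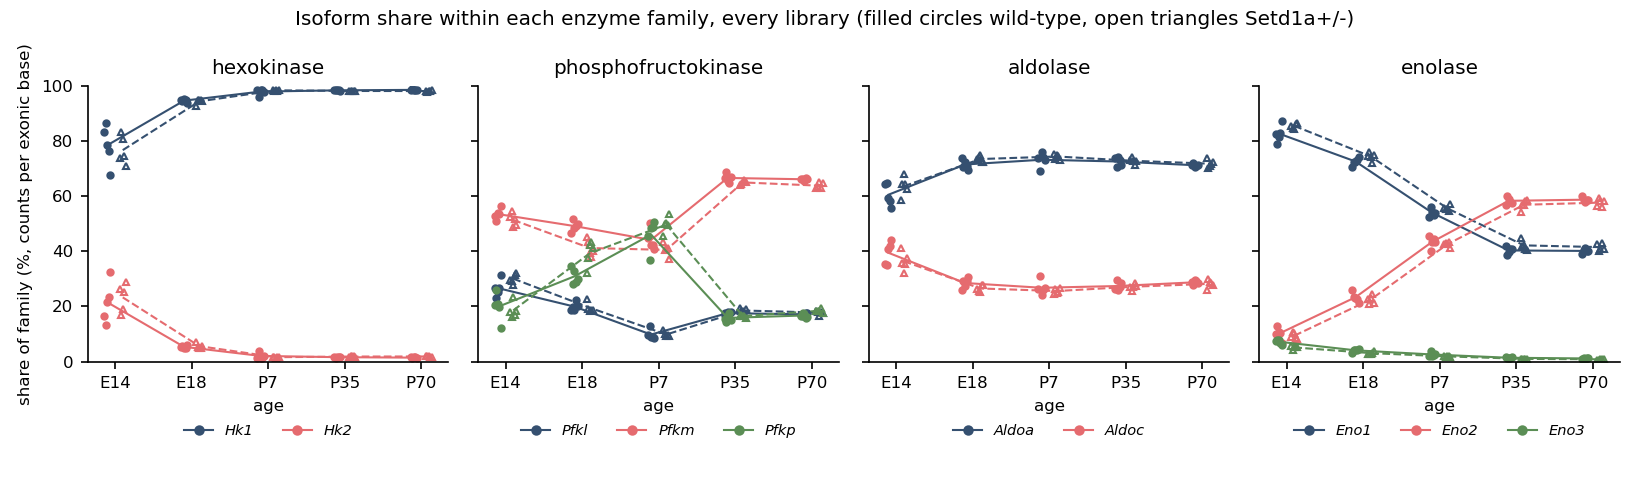
Share of each isoform in the summed counts per exonic base of its enzyme family (vertical axis, percent) against age (horizontal axis), with 1 panel per family. Filled circles are WT libraries, open triangles Het libraries, and solid and dashed lines join the WT and Het means. In WT the Eno1 share falls from 82.7% to 40.1% while that of Eno2 grows from 10.1% to 58.7%, and Pfkp reaches 46.1% of its family at P7.

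Aldolase splits the sugar into its 3-carbon parts, and the main aldolase gene rose steeply. Aldoa (ENSMUSG00000030695, chr7:126795234-126800751, reverse strand) stood at 148, 139, 130.2, 141 and 151 CPM in the WT libraries of E14 and at 217, 195.8, 175, 228 and 161.99 CPM in those of E18. At P7 they held 407, 406, 437, 419 and 402 CPM, at P35 1449.9, 1401, 1389, 1399 and 1350.1 CPM and at P70 1491, 1469, 1479.8, 1526 and 1368 CPM. Each age lay above the one before with no overlap, except that P35 and P70 overlapped. Aldoa rose 10.3-fold from E14 to P70, by 3.37 on the log2 scale (SE 0.0673, edgeR adjusted p = 2.08e-37, higher in 5 of 5 libraries), and by 3.22 in Het (SE 0.0668), from 143, 151, 156, 151 and 155 CPM to 1547, 1308, 1382, 1432 and 1377 CPM. The largest single step, 1.75 (SE 0.0630), fell between P7 and P35. The second, shorter entry with this symbol (ENSMUSG00000114515, chr7:126800790-126809108) had 56 to 218 counts and moved the other way, from 4.53 ± 0.319 CPM at E14 to 2.01 ± 0.418 CPM at P70 in WT (SD, n = 5). Aldoa lies 0.976 Mb from Setd1a on the same chromosome.

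Aldoc, the aldolase of astrocytes and not one of the 10, rose beside it by 2.67 (SE 0.0940), from 32.0 ± 5.997 to 203 ± 11.3 RPKM in WT, while Aldoa went from 48.7 ± 2.78 to 504 ± 20.4 RPKM (SD, n = 5). The share of Aldoa in the pair rose from 60.5% ± 4.01 to 71.2% ± 0.600 (two-sided exact permutation p = 0.00794). In Het it rose from 63.6% ± 3.39 to 71.8% ± 1.48.

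Enolase changed from a family led by Eno1 to one that Eno1 and Eno2 shared. Eno2 (ENSMUSG00000004267, chr6:124760053-124769673, reverse strand), the neuronal enolase, stood at 36.2, 41.5, 36.3, 37.2 and 27.5 CPM in the WT libraries of E14 and at 100.5, 94.6, 83.9, 94.4 and 80.9 CPM in those of E18. At P7 they held 307, 229.5, 295, 291 and 278 CPM, at P35 905, 943, 888, 891 and 865 CPM and at P70 969, 887, 893, 971 and 899 CPM. As with Aldoa, each age up to P35 lay wholly above the one before. Eno2 rose 25.9-fold from E14 to P70, by 4.69 on the log2 scale (SE 0.0858, edgeR adjusted p = 1.54e-38, higher in 5 of 5 libraries). In Het the rise was 4.64 (SE 0.0856), from 36.9, 37.3, 36.4, 32.9 and 31.8 CPM to 913, 861, 869.7, 846 and 894 CPM. The steps in WT were 1.35, 1.62 and 1.68, over steps that span unequal times.

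Eno1 (ENSMUSG00000063524, chr4:150236721-150248879, forward strand), the enolase of most tissues, changed less. The WT libraries held 344, 290.3, 317, 347 and 405 CPM at E14 and 313, 334, 300.2, 345 and 323 CPM at E18. At P7 they held 404, 369, 421, 396 and 397 CPM, at P35 760.5, 689, 683, 715 and 703 CPM and at P70 723, 698, 723, 757 and 705 CPM. The embryonic groups overlapped, E14 overlapped P7, and the adult groups lay far above and overlapped each other. Eno1 rose 2.12-fold from E14 to P70, by 1.08 (SE 0.0595, edgeR adjusted p = 2.77e-21, higher in 5 of 5 libraries), and by 0.97 in Het (SE 0.0594). The step from E14 to E18 was -0.08 (SE 0.0589) and did not pass (edgeR adjusted p = 0.250), though it did without WT library 2 of E14, the lowest of its group (-0.13, edgeR adjusted p = 0.0436). Without the Xist libraries, of which the E14 one was the highest of its group, the step was -0.02 (edgeR adjusted p = 0.775). Most of the rise came between P7 and P35, at 0.84 (SE 0.0593). Its processed copy Eno1b, on another chromosome, is 99.5% identical over the aligned bases and had 1 to 22 counts. Reads that map to more than 1 place were not counted, so the level of Eno1 may be understated by the reads it shares with that copy.

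Eno3 (ENSMUSG00000060600, chr11:70657202-70662513, forward strand), the muscle enolase, was a minor part of the family, with 141 to 411 counts per library. The WT libraries held 9.85, 9.48, 9.86, 9.05 and 9.095 CPM at E14 and 4.63, 6.10, 5.83, 6.17 and 6.44 CPM at E18. At P7 they held 5.35, 7.90, 5.32, 5.37 and 6.11 CPM, at P35 8.58, 7.34, 7.53, 6.86 and 8.55 CPM and at P70 5.85, 6.22, 5.77, 7.26 and 7.32 CPM. Only E14 stood clear of the other ages, and from E18 onward every neighbour in the order of means overlapped. Eno3 fell by 0.55 on the log2 scale from E14 to P70 in WT (SE 0.112, edgeR adjusted p = 2.17e-05, lower in 5 of 5 libraries) and by 0.66 in Het (SE 0.114, edgeR adjusted p = 1.16e-06, 5 of 5 libraries). The fall lay between E14 and E18, at -0.70 (SE 0.112), and was followed by a smaller rise from P7 to P35 of 0.37 (SE 0.112, edgeR adjusted p = 0.00354), or 0.49 without WT library 2 of P7.

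Per kilobase of annotated exons, Eno1 held 82.7% ± 2.94 of enolase at E14, 72.6% ± 1.24 at E18, 54.0% ± 1.46 at P7 and 40.1% ± 0.693 at P70 in WT (mean ± SD, n = 5). Eno2 held 10.1% ± 2.20, 23.3% ± 1.72, 43.4% ± 2.07 and 58.7% ± 0.721 at those ages, and Eno3 went from 7.18% ± 0.806 to 1.12% ± 0.127. In the single libraries the Eno2 share was 9.95, 12.9, 10.7, 10.2 and 6.77% at E14 and 59.9, 58.6, 57.9, 58.7 and 58.5% at P70, with no overlap. All 3 shares differed between E14 and P70 in both genotypes (two-sided exact permutation p = 0.00794 each). Which enolase led in the adult depended on the length used. The annotated exons of Eno1 span 5379 bases and its longest transcript 2027, and scaled by the longest transcript Eno1 kept 51.5% ± 0.725 against 47.9% ± 0.738 for Eno2 at P70. The direction of each share with age was the same by either length.

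The isoforms compared differ in sequence along their transcripts. The longest protein-coding transcripts of the enolases were 76.2% (Eno1 and Eno2), 76.8% (Eno1 and Eno3) and 78.2% (Eno2 and Eno3) identical over their aligned bases. Hk1 and Hk2 were 71.5% identical, the phosphofructokinases 68.4% to 71.0%, and Aldoa and Aldoc 75.6%. For Pfkp the transcript aligned had 4145 bases, whereas the longest transcript used for levels had 8681. Between isoforms the longest run of identical bases was 18 to 27, shorter than the reads.

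Across genes, levels per kilobase in WT put Eno1 first at E14 (63.4 ± 7.95 RPKM), then Aldoa (48.7 ± 2.78), Pfkm (33.8 ± 3.44), Gpi1 (27.4 ± 1.69) and Pfkl (16.7 ± 0.694), with Eno3 (5.44 ± 0.225) and Hk2 (3.21 ± 0.492) last (SD, n = 5). Eno2 ranked 8 of 10 at E14, at 7.60 ± 1.08 RPKM. Aldoa led from E18 on and reached 504 ± 20.4 RPKM at P70, followed by Eno2 (196.4 ± 8.99), Eno1 (134 ± 4.24), Pfkm (115 ± 2.76) and Gpi1 (85.3 ± 4.75). Pfkp ranked 3 of 10 at P7 (66.6 ± 14.5 RPKM) and 8 of 10 at P70 (29.2 ± 1.26 RPKM). Eno3 and Hk2 were the lowest 2 at every age. Part of this order hangs on the length used. Per kilobase of the longest transcript, Eno1 led Aldoa at E18 as well (159.4 against 126 CPM) and stood above Eno2 at P70 (356 against 331 CPM). Gpi1, not Pfkp, ranked 3 of 10 at P7, and Gpi1 stood above Pfkm at E14 (55.3 against 39.3 CPM) and at P70 (172 against 134 CPM).

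Markers of cell types moved strongly over the same ages, and in these bulk samples more cells of a type and more RNA per cell cannot be told apart. Neuron markers (Rbfox3, Snap25, Syt1, Tubb3, Map2) summed to 2893, 3095, 2575, 2533 and 2076 CPM in the WT libraries of E14 and 5476, 5162, 5836, 5420.0 and 5310.1 CPM at P70, with 3 of 5 higher and 1 lower, led by Tubb3 at E14 and Snap25 at P70. This sum describes these 5 genes and does not stand for all neuron markers, which did not all rise. Progenitor markers (Pax6, Sox2, Eomes, Hes5, Mki67, Vim) fell in 6 of 6 genes beside Hk2, from 1216, 1095, 1246, 1322 and 1517 CPM to 102.05, 104, 89.9, 129 and 96.9 CPM, led by Vim and then Sox2. Astrocyte markers (Gfap, Aqp4, Slc1a2, Slc1a3, Gja1) rose in 5 of 5, from 207, 236, 249, 249 and 241 CPM to 3364, 3166, 3478, 2912 and 3268 CPM, led by Slc1a3 and then Slc1a2. No marker of these lists was at 0 in any group. Their part in the age changes of the 10 genes was not tested.

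Not all other marker lists are given. By edgeR calls from E14 to P70 in WT, those given had 5 higher of 5 for microglia (Cx3cr1, P2ry12, Csf1r, Tmem119, C1qa) and 1 higher of 4 for endothelium (Cldn5, Pecam1, Flt1, Cdh5). All 7 erythroid genes (led by the globins) were lower, choroid plexus genes had 1 higher and 3 lower of 4, and striatal genes (Drd1, Drd2, Ppp1r1b, Rgs9) 4 higher of 4. Skeletal muscle genes (Ckm, Acta1, Myh3, Myh8, Myh4, Tnnt3, Tnnc2, Mylpf, Myl1) had 5 higher and 2 lower of 9. Their sum was 4.62, 3.31, 3.41, 3.43 and 3.56 CPM in the WT libraries of E14 and 14.9, 12.8, 14.02, 13.9 and 14.2 CPM at P70. The sum was led by Mylpf at E14 (mean 1.32 CPM) and by Acta1 at P70 (mean 8.29 CPM). The part of this list in the age changes of Eno3 and Pfkm was not tested.

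For 9 of the 10 genes, the 3 tested genes with the most similar log2 CPM over the 50 libraries were found by Pearson correlation, as a description only, since all libraries share the 5 ages and a common scaling. Those closest to Eno1 were Gapdh, Tpi1 and Stk16 (r = 0.980 to 0.986), of which Gapdh and Tpi1 are glycolytic enzymes. Those closest to Eno2 were Rgs7bp, Cplx1 and Nsf (r = 0.997 to 0.998), to Aldoa Kcnab2, Got1 and Ghitm (r = 0.996 to 0.997), and to Hk1 Gm42517, Gabbr2 and Golga7b (r = 0.993). Those closest to Hk2 were Pik3r3, Gm49337 and Crnkl1 (r = 0.970 to 0.972), to Gpi1 Tuba4a, Acsbg1 and Cldn10 (r = 0.984), and to Pfkp Bean1, Pak6 and Plpp5 (r = 0.962 to 0.977). For Pfkm they were Fbxl16, Kif5a and Abhd12 (r = 0.995 to 0.996) and for Pfkl Fnip1, Ypel4 and Wdr45 (r = 0.964 to 0.966). After each age mean was subtracted, Gpi1 was closest to Eno1 (r = 0.656), Tpi1 (0.637) and Aldoa (0.616), and Eno3 to Tmem106c (0.817), Rtn4ip1 (0.806) and Gm43064 (0.788), where the 50 libraries still share genotype and dissection.

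The other genes of the pathway were taken from lists of 77 genes, of which 72 were tested (Pgk2, Slc2a2, Ldhc, Fbp1 and Pck1 did not pass the filter). By edgeR, 46 rose and 20 fell from E14 to P70 in WT, with a median log2 change of 0.53, beside 42.8% of all tested genes called higher and 42.9% lower and a median of -0.00192. In Het 43 rose and 19 fell, with a median of 0.47, beside 42.3% and 43% of all tested genes. Most genes of any list are thus called at this span, and each list count below, all in WT, is to be read beside those WT shares. Of the lower steps of glycolysis, 7 of 9 tested genes rose and 2 fell, with log2 changes of Tpi1 (1.84), Gapdh (0.87), Pgk1 (0.99), Pgam1 (1.09) and Pkm (0.42), and the largest fall in Pklr (-1.08). Of other isoforms of the same steps, 5 of 6 rose, led by Hkdc1 at 5.68 (SE 0.353, edgeR adjusted p = 2.08e-19). Of regulators of phosphofructokinase 1 of 5 rose, Tigar (0.50), and 3 fell, among them Pfkfb3 (-0.78) and Pfkfb1 (-1.66). Of the glucose transporter family, not all of which carry glucose, 6 of 9 rose and 2 fell. They included the neuronal glucose transporter Slc2a3 (2.51), the proton-coupled myo-inositol transporter Slc2a13 (4.002) with the largest rise, and the insulin-dependent glucose transporter Slc2a4 (-3.35). The transporter of the blood-brain barrier, Slc2a1, rose by 0.47 (SE 0.181, edgeR adjusted p = 0.0150) in WT and did not pass in Het (0.09, edgeR adjusted p = 0.626) or with scaling by library size alone (edgeR adjusted p = 0.0840).

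In the lists that follow, for the same comparison in WT, the shares of all tested genes are again 42.8% higher and 42.9% lower. Among lactate genes 5 of 7 rose and 2 fell, with Ldha (0.72) and Ldhb (1.41), and the extremes Slc16a7 (1.98) and Slc16a8 (-1.29). Genes of pyruvate entry into mitochondria rose in 12 of 13, up to Pdk4 (2.04), and 1 fell, Pdp2 (-1.39). The pentose phosphate branch, which draws on the product of hexokinase, was lower in 6 of 7 genes and higher in 0 by edgeR, with a median of -1.24, most in Pgls (-1.44). Of genes for the reverse steps 3 of 4 rose, led by G6pc3 (1.18), and Fbp2 was called lower, at a mean of 0.0586 CPM at E14 and 0.0161 CPM at P70 (edgeR adjusted p = 0.0391, or 0.0609 without the Xist libraries). That call was also lost with DESeq2 (adjusted p = 0.0723) and without WT library 3 of E14 (0.148), WT library 5 of E14 (0.0600), WT library 1 of P70 (0.0906), WT library 3 of P70 (0.0893) and WT library 5 of P70 (0.0932). Hypoxia-inducible genes outside glycolysis had 7 higher and 2 lower of 12, with Bnip3 (2.35) and Kdm3a (-1.35) at the ends.

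**Figure D3:**
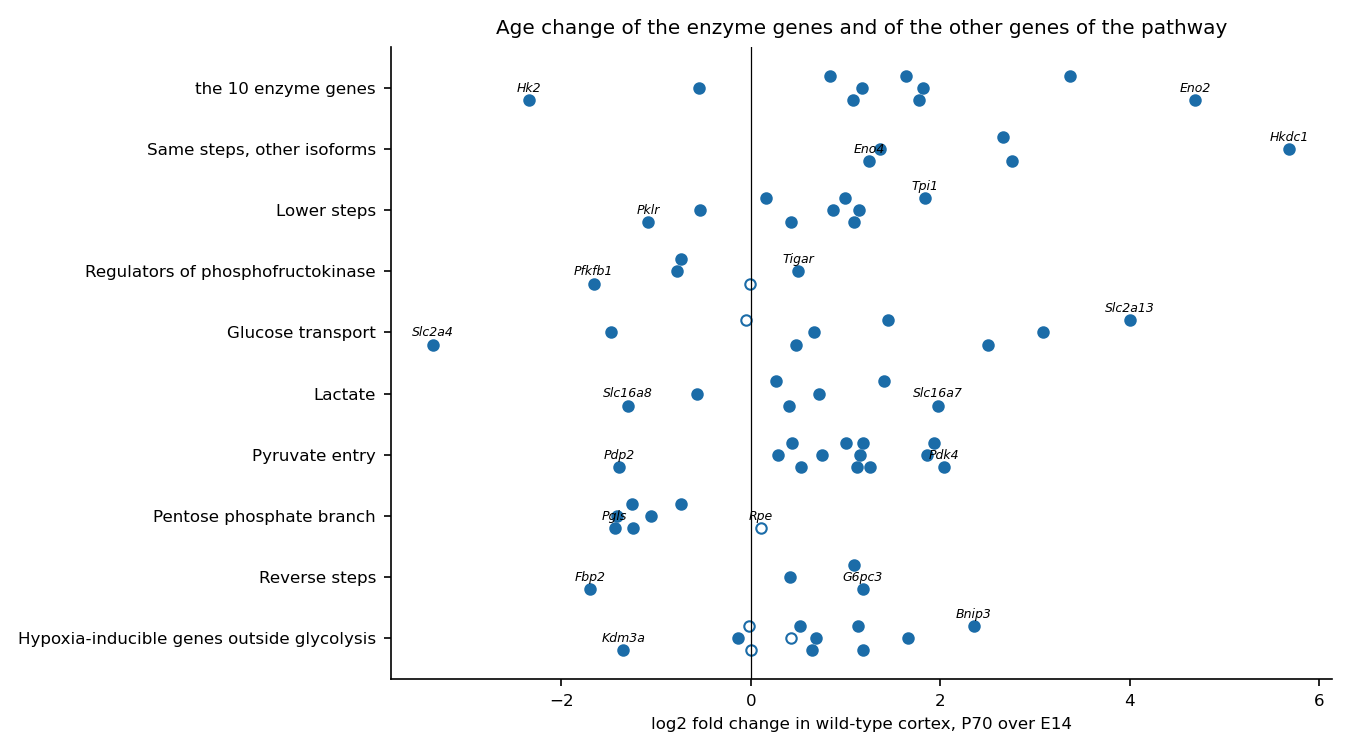
Change of the 10 genes and of the other genes of the pathway in WT cortex from E14 to P70, as the log2 fold change fitted by edgeR (horizontal axis), with 1 line per list (vertical axis). Each circle is 1 tested gene, filled where its adjusted p is under 0.05 and open otherwise, and the genes at either end of a list are named. One gene of the other isoforms is not shown. Pentose phosphate genes lie to the left, at a median of -1.24, and the genes of pyruvate entry to the right, at a median of 1.12.

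Values by genotype follow for the 10 genes, which were listed because of such differences, so nothing is tested and the shares over all genes are given only as background. Because the Setd1a totals do not check the labels, groups are those labelled Het and WT. Eno3 was lower in the libraries labelled Het at each of the 5 ages. At E14 the Het libraries held 8.48, 5.51, 6.87, 7.22 and 7.64 CPM against 9.85, 9.48, 9.86, 9.05 and 9.095 in WT, and at E18 4.74, 4.53, 4.52, 5.35 and 5.86 against 4.63, 6.10, 5.83, 6.17 and 6.44 CPM. At P7 they held 4.41, 3.79, 4.49, 4.69 and 3.91 against 5.35, 7.90, 5.32, 5.37 and 6.11 CPM, at P35 4.96, 5.68, 6.20, 5.19 and 4.67 against 8.58, 7.34, 7.53, 6.86 and 8.55 CPM, and at P70 4.26, 3.85, 4.55, 4.57 and 5.41 against 5.85, 6.22, 5.77, 7.26 and 7.32 CPM. All Het libraries lay below all WT libraries at E14, P7, P35 and P70, and the groups overlapped at E18. Fitted log2 differences, Het minus WT, were -0.41, -0.22, -0.50, -0.54 and -0.52 in order of age, with SE 0.111 to 0.114. Across ages the difference was -0.44 (SE 0.0513). Without WT library 2 of P7, which had the highest Eno3 of its group, it was -0.38 at P7 and -0.41 across ages.

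Skeletal muscle markers, the genes of the tissue in which Eno3 is the main enolase, summed to 3.31 to 4.62 CPM in WT and 2.94 to 10.8 CPM in Het at E14, 4.44 to 6.20 and 5.15 to 8.24 at E18, and 11.2 to 16.2 and 13.2 to 15.6 at P7. At P35 the sums were 13.1 to 16.9 and 14.1 to 15.96 CPM and at P70 12.8 to 14.9 and 11.3 to 14.6 CPM. The ranges of the genotypes overlapped at every age, and the part of this list in the Eno3 differences was not tested. The most abundant gene was Acta1 or Mylpf.

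Gpi1 differed most at E18, where the Het libraries held 255, 214, 259, 254 and 239 CPM and the WT libraries 213.1, 179, 163.2, 210.4 and 175 CPM. Every Het library lay above every WT library, though the lowest Het value (214 CPM) and the highest WT value (213.1 CPM) were close. At the other ages the groups overlapped, with Het libraries at 185 to 199 CPM against 164.2 to 192.6 in WT at E14, 379 to 436 against 389 to 436 at P7, 565 to 609 against 554 to 598 at P35 and 557 to 589 against 531 to 603 at P70. The log2 difference was 0.38 (SE 0.0546) at E18 and 0.13, 0.01, 0.05 and 0.05 at the other ages in order, and 0.12 (SE 0.0303) across ages. At P7 the difference was -0.00736 without WT library 2. Without the Xist libraries, 1 of which is in this group, the E18 difference was 0.36.

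At E18 further members stood higher in Het. Pfkl held 134, 126, 127, 128 and 127 CPM in Het against 105, 107, 103, 116 and 109.8 in WT, and Eno1 394, 368, 384, 384 and 362 against 313, 334, 300.2, 345 and 323 CPM, both with no overlap. Pfkp held 381, 496, 588, 591 and 563 against 387, 307, 363, 302 and 331 CPM, with 1 Het library inside the WT range. The log2 differences at E18 were 0.63 for Pfkp, 0.25 for Pfkl, 0.23 for Eno1, 0.15 for Eno2, 0.13 for Aldoa, 0.12 for Hk1, 0.19 for Hk2 and 0.02 for Pfkm. All but Eno3 were thus above 0 at this age. The E18 libraries also differed in tissue markers. Endothelial markers summed to 201, 127, 296, 236 and 125 CPM in WT and 125, 101.99, 128, 142 and 122 CPM in Het, led by Cldn5. Choroid plexus markers summed to 4.70, 4.71, 221, 183 and 8.78 CPM in WT and 4.81, 1.81, 3.56, 4.21 and 3.07 CPM in Het, and their part in the E18 differences was not tested.

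Across the 5 ages, fitted together, the log2 differences of the other 8 genes ran from Pfkm at -0.07 to Hk2 and Pfkp at 0.14 each, beside 0.12 for Gpi1. That of Pfkp was 0.09 without the Xist libraries. At E14, leaving out the Xist libraries moved Pfkp from -0.19 to -0.37, Hk1 from -0.04 to -0.16, Eno2 from -0.03 to -0.11 and Eno1 from 0.11 to 0.18. At P7, leaving out WT library 2 moved Pfkp from 0.12 to -0.01 and Eno2 from -0.08 to -0.14. Hk2 was higher in Het at P35, at 5.59, 5.06, 5.26, 4.78 and 4.94 CPM against 4.72, 4.16, 4.56, 4.17 and 4.51 in WT with no overlap, and its log2 difference was 0.38 at P70, where the groups overlapped. At P7 it was -0.28, where WT library 2 held the highest value, and it was -0.00399 without that library. Counted by age, groups of the 10 genes with no overlap numbered 1 at E14 (Eno3), 3 at E18 (Gpi1, Pfkl, Eno1), 1 at P7 (Eno3), 2 at P35 (Hk2, Eno3) and 1 at P70 (Eno3). Over all tested genes the shares with no overlap, in the same order of ages, were 0.784%, 2.22%, 2.22%, 2.25% and 1.79%, and nothing is read from the comparison because the contrast chose the members.

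**Figure D4:**
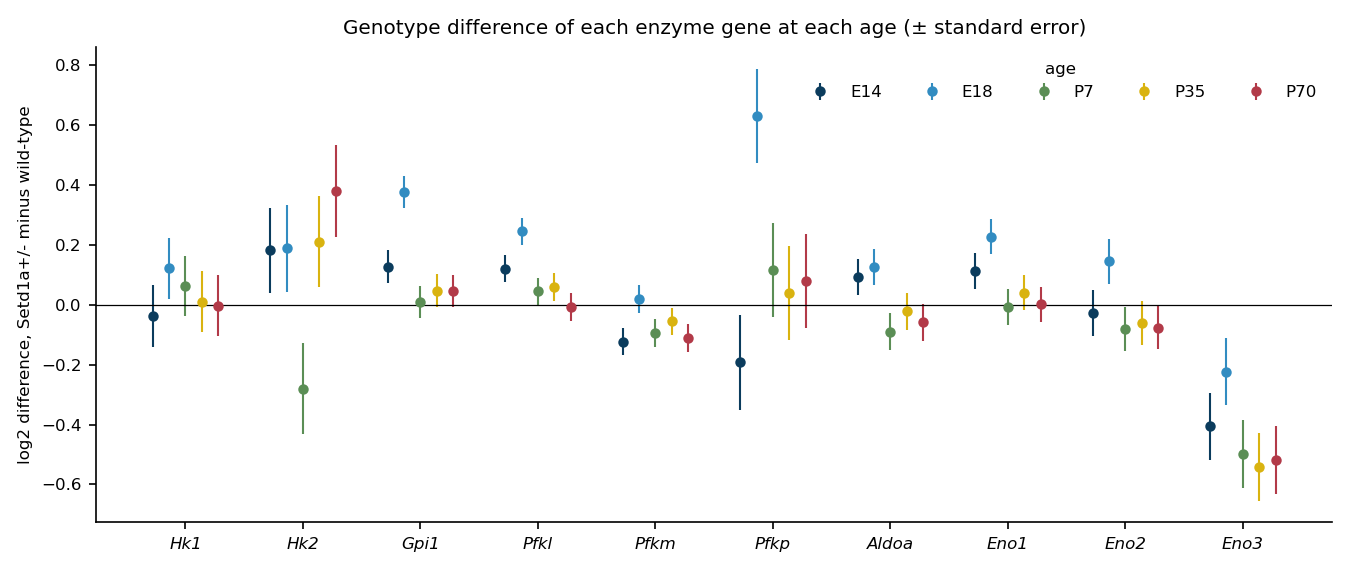
Difference between genotypes of each of the 10 genes at each age, as the fitted log2 value for Het minus WT with its standard error (vertical axis), with 1 group of points per gene (horizontal axis) and 1 colour per age. Eno3 lies below 0 at all 5 ages, and Pfkp at E18 is the highest point at 0.63.

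The other genes of the pathway lists were taken by their place in metabolism, though with earlier results of these data known, and were tested. With age as a covariate, 18 of the 72 had an unadjusted p under 0.05 in edgeR, beside 2360 of all 16330 tested genes. After adjustment edgeR called 4 of the 72 higher in Het and 2 lower, beside 0.68% of all tested genes called higher and 3.75% lower. Higher were the hypoxia-inducible genes Ankrd37 at 0.25 (SE 0.0654, edgeR adjusted p = 0.0139), Egln3 at 0.19 (SE 0.0491, edgeR adjusted p = 0.0152) and Vegfa at 0.15 (SE 0.0418, edgeR adjusted p = 0.0199), and the pentose phosphate enzyme Pgd at 0.08 (SE 0.0221, edgeR adjusted p = 0.0347). Lower were the pentose phosphate enzyme Pgls at -0.11 (SE 0.0293, edgeR adjusted p = 0.0163) and the pyruvate dehydrogenase kinase Pdk2 at -0.15 (SE 0.0419, edgeR adjusted p = 0.0300). Each difference is over 25 libraries per genotype and pools the 5 ages, and whether it differs between ages was not tested. For Vegfa the log2 difference was 0.28 at E14 and 0.39 at E18, but 0.02, 0.04 and 0.02 at P7, P35 and P70 (SE 0.0820 at P7), so after birth it was near 0. Over the 5 ages it ranged from 0.17 to 0.32 for Ankrd37, 0.00 to 0.31 for Egln3 and 0.05 to 0.09 for Pgd. The log2 difference ranged from -0.28 to -0.01 for Pgls (lowest at P70) and from -0.33 to -0.05 for Pdk2 (lowest at P7). At P7 the highest WT library held 34.3 CPM of Pdk2, against a WT mean of 23.2 CPM (SD 6.31) and a Het mean of 18.4 CPM. The value of -0.33 includes that library, and the difference without it is not given. Pdk2 no longer passed without WT library 2 of E14 (edgeR adjusted p = 0.0532), WT library 2 of P35 (0.0547) or Het library 1, 3 or 5 of P7 (0.0518, 0.0519 and 0.0517). Pgls did not pass with limma-voom (adjusted p = 0.0531). Pgd did not pass with scaling by library size alone (edgeR adjusted p = 0.149), nor without any 1 of 10 libraries.

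Those 10 libraries, with the edgeR adjusted p of Pgd without each, were Het library 1 of E14 (0.0505), Het library 3 of E18 (0.0534), Het library 3 of P35 (0.0593), Het library 5 of P35 (0.0511), WT library 1 of P35 (0.0501), Het library 5 of P7 (0.0531), Het library 2 of P70 (0.0568), Het library 4 of P70 (0.0527), WT library 2 of P70 (0.0526) and WT library 3 of P70 (0.0528). Further genes passed edgeR only without 1 library, given with log2 differences: Mpc2 without Het library 3 of E14 (-0.08, adjusted p = 0.0278), Pdk4 without Het library 3 of E14 (0.23, adjusted p = 0.0302), Ndrg1 without WT library 2 of E14 (0.14, adjusted p = 0.0494), Mpc2 without WT library 3 of E14 (-0.08, adjusted p = 0.0268), Pdha1 without Het library 5 of E18 (0.07, adjusted p = 0.0335), Kdm3a without WT library 2 of P7 (0.10, adjusted p = 0.0300) and Mpc2 without Het library 4 of P70 (-0.08, adjusted p = 0.0455).

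Within single ages, edgeR called few genes of any kind by genotype: in order of age, 0.129%, 0.11%, 0.735%, 0% and 0.233% of all tested genes. These counts rest on few libraries: the 120 genes at P7 were 7 without WT library 2, and the 21 at E14 and 18 at E18 were 795 and 77 without the Xist libraries. Of the 72 pathway genes, 0 were called at E14 (6 at an unadjusted p under 0.05), 0 at P7 (7) and 0 at P35 (0), and DESeq2 and limma-voom also called 0 at these ages. Of all 16330 tested genes, 1894 had an unadjusted p under 0.05 at E14 and 1448 at P7. At P35, where edgeR called 0 of all tested genes, 551 had an unadjusted p under 0.05, and DESeq2 called 11 and limma-voom 0. At E18 Vegfa, a growth factor for blood vessels, was higher in Het, with 136 to 178 CPM against 98.8 to 131.01 in WT and no overlap. Its log2 difference was 0.39 (SE 0.0817, edgeR adjusted p = 0.0275, 5 of 5 libraries). It did not pass with the RNA integrity number as a covariate (log2 difference 0.40, edgeR adjusted p = 0.141), nor without Het library 4 or 5 (0.0911 and 0.0558) or WT library 1 or 3 (0.0867 and 0.0677) of E18. At P70 Pgls was lower in Het, with 17.3 to 19.7 CPM against 20.9 to 24.2 in WT and no overlap, at a log2 difference of -0.28 (SE 0.0635, edgeR adjusted p = 0.0413, 5 of 5 libraries).

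That call of Pgls at P70 was lost with limma-voom (adjusted p = 0.154), library size alone (edgeR adjusted p = 0.0710), no filter (0.0512) and the RNA integrity number (0.0696), and without Het library 1 (0.113), Het library 2 (0.0870), Het library 3 (0.0799), Het library 4 (0.218), WT library 1 (0.0901), WT library 4 (0.212) and WT library 5 (0.199). Its log2 difference lay between -0.29 and -0.25 in all of these. Single libraries also made calls at other ages. At E14 Tpi1 passed without WT library 5, which carried Xist (log2 difference 0.22, edgeR adjusted p = 0.0190), and Vegfa without Het library 1 (0.31, edgeR adjusted p = 0.0451). At P7 Pdk2 passed without WT library 3, 4 or 5 (-0.39, -0.37 and -0.39, edgeR adjusted p = 0.0259, 0.0495 and 0.0285). With all libraries it did not pass (-0.33, edgeR adjusted p = 0.0855). The highest WT library, at 34.3 CPM against a WT mean of 23.2 CPM, stayed in each of these fits. The difference without that library is not given.

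Among the marker lists, in the edgeR fit across ages, 1 of 9 skeletal muscle genes and 2 of 4 choroid plexus genes had an unadjusted p under 0.05 by genotype, none in the other lists given here, and none passed adjustment. Of all 16330 tested genes, 2360 had such an unadjusted p in that fit. Within E14, 4 of 4 endothelial genes (median log2 difference 0.87) and 5 of 9 skeletal muscle genes (1.38) had an unadjusted p under 0.05, beside 1894 of all tested genes. Within E18, 3 of 4 endothelial genes (-0.75) and 2 of 4 choroid plexus genes (-3.88) did, beside 1859 of all tested genes. None of these marker genes passed adjustment. The endothelial sums at E14 were 88.5, 83.9, 97.6, 81.2 and 120.2 CPM in WT and 87.5, 464, 89.8, 161 and 89.2 CPM in Het, and the part of this list in the E14 difference of Eno3 was not tested. Het library 2, with the sum of 464 CPM, also had the least Eno3 of its group (5.51 CPM). Within P7, among the lists given here alone, 1 of 4 choroid plexus genes was called lower in Het, where WT library 2 stood apart, and 2 of 6 progenitor genes had an unadjusted p under 0.05 (median -0.39). The part of these lists and of the neuron list in the P7 values of Eno3, Hk2, Pfkp and Eno2 was not tested.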

How the data were processed

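The values used were gene counts that the authors deposited, 1 file per library, for 55487 genes. Per the methods and labels, the authors trimmed reads with Trimmomatic, checked them with FastQC, aligned them with STAR (versions not given in the sources used here) and counted them with featureCounts 1.4.6-p2 on Ensembl release 102 of GRCm38, without strand, once for each overlapping gene and without reads that map to several places. Here genes were named by GENCODE vM21, and 21897 protein-coding genes were kept, of which 16330 passed filterByExpr of edgeR at a minimum count of 10. Counts were scaled by TMM and fitted by quasi-likelihood (glmQLFit, glmQLFTest) in edgeR 4.0.16 under R 4.3.3. One model had a mean for each of the 10 groups and another had age and genotype. Genes were called at a Benjamini-Hochberg adjusted p under 0.05 over all tested genes. Alternatives used DESeq2 1.42.0, limma 3.58.1 (voom), DESeq2 size factors, library size alone, a filter of 10 CPM in 5 libraries, no filter, a replicate block, the RNA integrity number as a covariate, and each library left out in turn. Shares were tested by exact permutation of 252 relabelings and are unadjusted. Similar genes used log2 CPM with a prior count of 2. Libraries with over 1000 Xist counts were listed, 2 in all. Python 3.11.15 with numpy 2.4.6, pandas 2.3.3, scipy 1.17.1, matplotlib 3.10.9 and Biopython 1.88 did the rest, including sequence identity and promoter windows of 250 bases from RefSeq (GRCm38.p6). The fits were tested on simulated counts. The first criterion, a share of changed genes recovered, was missed in the simulation of the age change and was replaced afterwards by limits on bias, sign and false calls, which were met, though the share of false calls there lay above the cutoff used for calls.

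At these depths the smallest count of a member in any library was 108, and counting error weighs most on Hk2 and Eno3, the genes with the fewest counts. All 10 members are named, and of the other pathway genes Aldoc, Tpi1, Gapdh, Pgk1, Pgam1, Pkm, Ldha, Ldhb, Slc2a1, Slc2a3 and Pfkfb3 always, the called gene with the largest change in each direction in each list, and up to 10 called by genotype across ages. Some genes and marker lists under these rules are not reported. A gene whose call hung on 1 library is named beyond that rule. Members and lists were chosen with earlier results of these data known. The fits without the Xist libraries by age, without WT library 2 of P7 for age steps and across ages, and with each library left out for age steps, and the order of genes by longest transcript, were added after seeing the data.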

Additional observations from a re-analysis of the deposited data

Results flagged for a closer look

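In 4 of 100 groups of 5 libraries (10 genes in 10 groups), 1 library lay far from the other 4, judged by its gap to the nearest library as a share of the range of the group, and chance alone gives about 1 in 20 groups. Hk1 in WT library 4 of E18 was 224 CPM against 189.8 to 198 CPM in the other 4 libraries, a gap of 0.750 of the range. Gpi1 in WT library 1 of P70 was 603 CPM against 531 to 549 CPM in the other 4 libraries, a gap of 0.745 of the range. Pfkl in Het library 2 of E14 was 111 CPM against 122 to 125 CPM in the other 4 libraries, a gap of 0.797 of the range. Pfkm in WT library 2 of P7, which also stood apart across genes, was 191 CPM against 209 to 216 CPM in the other 4 libraries, a gap of 0.722 of the range.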

How the results depend on the processing

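With the filter of at least 10 CPM in at least 5 libraries, Eno3 leaves the tested genes, so 1 member (2 in the fit used above) was called lower from E14 to P70 in WT, 1 (2) in Het and 1 (2) from E14 to E18, and 12 (20) other pathway genes were lower in WT. In the genotype effect across ages, limma-voom called 1 (2) pathway gene lower and also called Slc16a3 (0.27, adjusted p = 0.0475), Pck1 passed with no filter (log2 difference 1.45, edgeR adjusted p = 0.0497), and with each library left out in turn the count ranged from 1 to 3. Within single ages the pathway genes called were 1 (0) at E14 without the Xist libraries, 0 (1) at E18 with the RNA integrity number, and 0 (1) at P70 with limma-voom, library size only, no filter or the RNA integrity number. With each library left out they ranged from 0 to 1 at E14, E18, P7 and P70. The change of the Pfkp share in WT ranged from -5.03 to -1.56 points with each library left out. The cause of these shifts was not tested beyond the fewer genes or libraries used. Every other count of members or pathway genes kept within 1.5 times, and the direction of every called member was the same in each alternative. By Spearman correlation 0 of the 3 most similar genes were shared for Hk1, Gpi1, Pfkm, Pfkp and Aldoa, 1 for Pfkl and Eno2, and 2 for Hk2 and Eno1.

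Calls over all tested genes moved more. By genotype at E14, 21 genes were called, 114 with DESeq2, 3 with library size only (1 higher and 2 lower, against 4 and 17), 9 with the 10 CPM filter and 795 without the Xist libraries. At E18, 18 were called, 111 with DESeq2, 10 with limma-voom, 7 with the 10 CPM filter, 1 with the RNA integrity number and 77 without the Xist libraries. At P7, 120 were called, 7 without WT library 2, 16 with limma-voom and 68 with the 10 CPM filter. At P35, 0 were called, 11 with DESeq2, 2 with DESeq2 size factors, 1 with the 10 CPM filter and 3 without the Xist libraries. At P70, 38 were called and 77 with DESeq2. From P35 to P70 in WT, 173 were called, 269 with DESeq2 and 101 with the RNA integrity number. With each library left out in turn, calls by genotype ranged from 1 to 741 at E14, 7 to 55 at E18, 7 to over 200 at P7, 0 to 5 at P35 and 8 to 92 at P70, and calls from P35 to P70 in WT from 48 to 277.

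Whether replicate numbers mark paired libraries was not tested, and no chance value is given for the counts that follow. Libraries that share a number had a mean correlation of 0.0127 in their deviations over 225 pairs (-0.333 to 0.460), 36 of them over 0.1, against -0.00329 over 900 other pairs, and 17 of 50 libraries were closest to their own number. With the replicate block, members called from E14 to P70 in WT were again 8 higher and 2 lower, all genes called by genotype were 727 (723) across ages, 42 (120) at P7 and 3 (0) at P35, and no call of a member changed.

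Depth limits Eno3, at 141 to 411 counts, and the second Aldoa entry, at 56 to 218. Cell types were not separated, RNA is not enzyme activity, and each age was sampled from other mice.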
